A study of Mus musculus with 2 samples.

Results

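The 9 genes described here encode transcription factors known from the diencephalon and adjoining brain: Olig1, Olig2, Olig3, Tcf7l2, Barhl1, Barhl2, Gbx2, Sim1 and Otp. They were taken by gene symbol from 55536 annotated genes, and each symbol matched a single gene. The set was put together because several of its members differ between the 2 libraries of the series, so every ratio between the libraries below is a description and carries no test. Both libraries came from whole midbrain of B6NCrl mouse embryos at 12.5 days of gestation, pooled over males and females, with 120 embryos in replicate 1 and 88 in replicate 2. They are biological replicates of the only group, with no treatment or mutation. Polyadenylated RNA was copied from an oligo-dT primer, starting from 10 ng. Annotated genes received 29056772 expected counts (estimated read numbers that need not be whole) in replicate 1 and 37122519 in replicate 2.

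The diencephalon lies directly rostral to the midbrain and is divided into pretectum, thalamus and prethalamus, with the hypothalamus below. Progenitors of the thalamus express Olig3, while Tcf7l2 and Gbx2 mark its young neurons, and Tcf7l2 extends into the pretectum and the habenula. Olig1 and Olig2 act in the oligodendrocyte and motor neuron lineages, Barhl1 and Barhl2 in several brain regions including the diencephalon, and Sim1 and Otp in neuroendocrine neurons of the hypothalamus. Whole-tissue libraries do not show where in the dissected tissue a transcript was made, and fewer cells of a type and less RNA per cell cannot be told apart.

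The midbrain label was set beside marker genes. All 12 midbrain and isthmus genes were at 1 TPM or more in both libraries, TPM being the transcript abundance per length scaled to a fixed total. Otx2, a factor that specifies forebrain and midbrain, had 144.56 TPM in replicate 1 and 140.91 TPM in replicate 2. Of 8 hindbrain genes, 2 reached 10 counts in either library, and Hoxb4 had a count of 0 in each. Detection did not set midbrain apart from other regions and tissues. All 15 thalamic, 12 pretectal and 10 mesenchymal genes of the lists below also reached 1 TPM in both libraries. So did 8 of 9 prethalamic and 7 of 10 telencephalic genes.

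All 9 factors were detected at 1 TPM or more in both libraries, at levels that differed widely among them. Tcf7l2 was the most abundant at 345 ± 108 TPM and Otp the least at 1.96 ± 0.453 TPM (mean ± SD, n = 2 libraries, as for all levels below). Tcf7l2 exceeded the next gene in the order of means, Barhl1, by 10.5-fold or more in each library. In replicate 1, where Olig3 was second, Tcf7l2 exceeded Olig3 by 8.43-fold. Barhl1, Olig3 and Gbx2 formed a middle tier, with ranges over the libraries that overlapped between neighbours. Olig3 also reached below this tier, with 8.71 TPM in replicate 2 against 11.9 TPM for Barhl2 in replicate 1. Barhl2 and Olig2 came next and also overlapped, and Olig1 overlapped with Otp at the bottom. Sim1, at 3.96 to 4.56 TPM, lay narrowly between Olig2 (4.64 TPM in replicate 2) and Olig1 (3.89 TPM in replicate 1). In the older M4 annotation the mean of Sim1 was 2.42 TPM, below that of Olig1 at 3.025 TPM. Among 22028 protein-coding genes, Tcf7l2 ranked 251 in replicate 1 and 505 in replicate 2, whereas Otp ranked 12104 in replicate 1 and 12670 in replicate 2. A single factor changed its place by more than 1 position between the libraries, since Olig3 was at position 2 in replicate 1 and at position 4 in replicate 2.

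**Figure D1:**
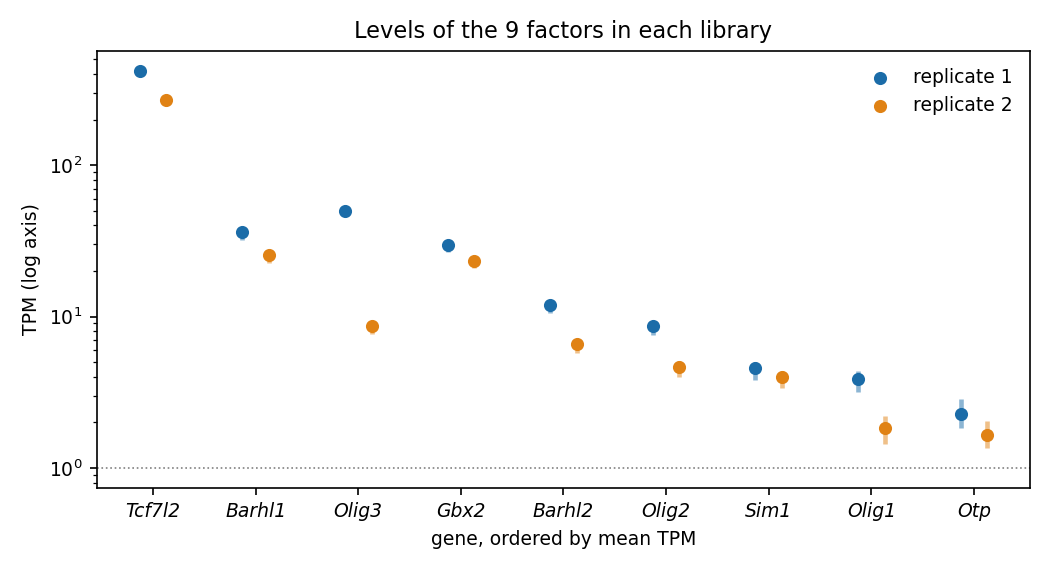
Level of each factor as TPM on a log axis, with genes ordered by mean TPM, replicate 1 left of replicate 2; thin bars are the deposited credibility bounds and the dotted line is 1 TPM. Replicate 1 lies above replicate 2 for all 9 genes, and Olig3 shows the widest separation, with 49.97 TPM in replicate 1 and 8.71 TPM in replicate 2.

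Ratios were computed from expected counts scaled by TMM (a scaling that sets the bulk of genes equal between libraries), and are given as log2 of replicate 1 over replicate 2 with an exact 95% interval. Such intervals cover counting error at most and leave out variation between pools. They take reads as independent, but amplified reads without molecular identifiers are not independent molecules, so the intervals may be too narrow. Beyond counting error here means only that the interval excludes equality. All 9 log2 ratios lay above 0, with a median of 0.68. For 8 of the 9 the interval excluded equality in favour of replicate 1, and 15.5% of the 19885 genes that reached 10 counts in either library did the same. Olig3 and Olig1, that is 2 of 9, were also past 2-fold, against a background of 1.78% of those genes. No factor was past that limit in favour of replicate 2, against 2.45% of genes. All 9 factors also reached 50 counts, a filter that left a background of 0.508% in favour of replicate 1 and 0.864% in favour of replicate 2. Because the members were picked partly for this ratio, these counts say nothing about the group. TMM ratios are relative to the bulk of genes. With ERCC spike-in scaling the median over all genes was -0.28 instead of -0.01 and every log2 ratio was lower by the same amount, which left all 9 factors above 0 and 7 of them beyond counting error.

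**Figure D2:**
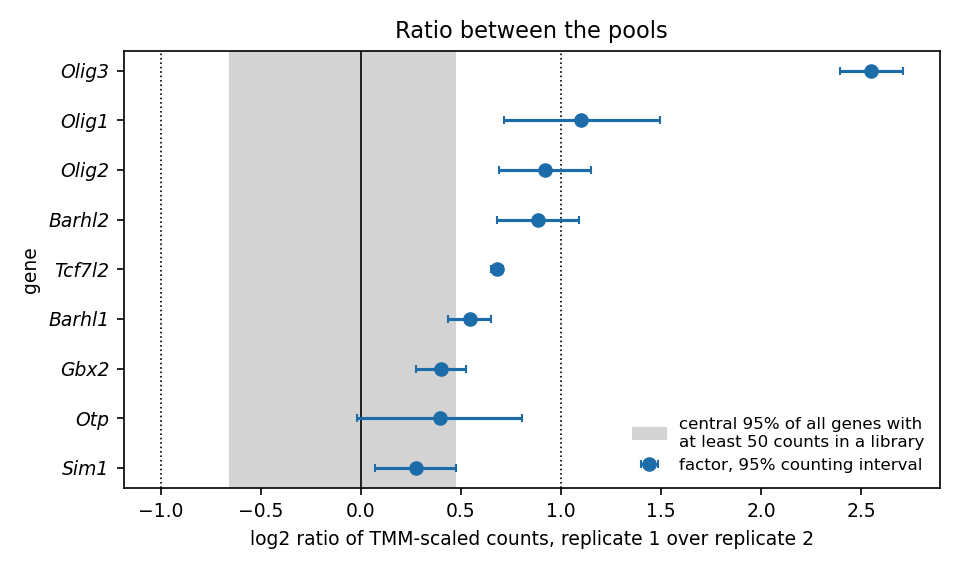
Log2 ratio of TMM-scaled counts, replicate 1 over replicate 2, for each factor; bars are 95% counting intervals, dotted lines mark 2-fold and the grey band is the central 95% of the 15158 genes that reached 50 counts. Olig3 stands far to the right, 5 further factors lie right of the band, and Gbx2, Otp and Sim1 lie inside it.

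The band that holds the central 95% of genes reaching 50 counts ran from -0.66 to 0.47 on the log2 scale, and the median absolute log2 ratio of those genes was 0.10. Just past the 2-fold limit, a log2 ratio of 1, stood Olig1 at 1.10, and just short of it stood Olig2 at 0.92 and Barhl2 at 0.88. The precision of a ratio went with the count behind it. Tcf7l2 had the narrowest interval of the 9, from 0.65 to 0.71, and Otp the only one that included equality, from -0.02 to 0.81.

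The OLIG factors are basic helix-loop-helix (bHLH) proteins that bind E-box sequences. Olig3 lies on chromosome 10 at 19356533 to 19358604 (mm10, plus strand, ENSMUSG00000045591.6), apart from the other two. Olig2 at 91225457 to 91228677 (ENSMUSG00000039830.9) and Olig1 at 91269772 to 91271933 (ENSMUSG00000046160.6) share a stretch of the plus strand of chromosome 16, with 41.095 kb between them. Each has a single annotated transcript. The 250 bases before the RefSeq start of Olig3 and of Olig2 (build GRCm38.p6, the same assembly as mm10) are shown because the ratio of these paralogs differed between the pools. Capitals mark the TATA box letters TATAAA, searched on both strands.
Olig3 promoter, chr10:19356289-19356538, plus strand: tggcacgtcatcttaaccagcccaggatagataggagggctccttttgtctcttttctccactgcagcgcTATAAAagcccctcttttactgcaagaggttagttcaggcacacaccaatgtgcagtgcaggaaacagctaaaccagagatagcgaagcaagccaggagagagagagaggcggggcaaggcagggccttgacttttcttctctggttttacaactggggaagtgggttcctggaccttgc
Olig2 promoter, chr16:91225300-91225549, plus strand: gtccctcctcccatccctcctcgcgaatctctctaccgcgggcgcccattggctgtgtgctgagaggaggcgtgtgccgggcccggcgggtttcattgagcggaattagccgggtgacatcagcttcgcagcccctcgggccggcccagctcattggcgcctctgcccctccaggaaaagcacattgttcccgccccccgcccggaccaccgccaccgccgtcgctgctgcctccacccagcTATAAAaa
The letters begin at position -180 from the RefSeq start in Olig3 and at -8 in Olig2. The M21 start of Olig2, 91225457, lies inside its window, so the Olig2 match falls within the gene as annotated for the counts. The GC content of these windows was 51.6% with 4 CpG in Olig3 and 66.8% with 22 CpG in Olig2, and the median over 32851 RefSeq promoters was 52.4% GC.

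Olig3 had 49.97 TPM from 1841 counts in replicate 1 and 8.71 TPM from 405 counts in replicate 2. Its scaled counts were thus 5.85-fold higher in replicate 1, with an interval of 5.25 to 6.53. Olig3 specifies progenitors in the thalamus and in the dorsal hindbrain and spinal cord. In replicate 1 it was above 84.0% of protein-coding genes in level, and in replicate 2 above 56.4%. Only 4 of 12239 protein-coding genes with at least 200 counts summed over the libraries had a larger ratio.

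Olig2, which specifies motor neurons and oligodendrocytes, had 8.61 TPM from 391 counts in replicate 1 and 4.64 TPM from 266 counts in replicate 2. Its log2 ratio was 0.92, with an interval of 0.69 to 1.15. Olig1, which acts in oligodendrocyte differentiation, had 3.89 TPM from 150 counts in replicate 1 and 1.85 TPM from 90 counts in replicate 2. Its log2 ratio was 1.10, with an interval of 0.71 to 1.49, so that the intervals of the pair on chromosome 16 overlapped. Olig1 fell short of 2-fold on the log2(TPM + 1) scale, at 0.78, and with ERCC spike-in scaling, at 0.83.

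The makeup of the family therefore differed between the pools. The summed level of the 3 Olig genes was 62.5 TPM in replicate 1 and 15.2 TPM in replicate 2. Olig3 made up 80.0% of that sum in replicate 1 and 57.3% in replicate 2, while Olig2 made up 13.8% in replicate 1 and 30.5% in replicate 2. Olig3 stood 5.80-fold above Olig2 in replicate 1 and 1.88-fold above it in replicate 2, and the log2 difference of their ratios was 1.63, with an interval of 1.36 to 1.90. Olig2 stood 2.21-fold above Olig1 in replicate 1 and 2.51-fold above it in replicate 2. For that pair the log2 difference was -0.18 and its interval, -0.62 to 0.26, included 0.

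Shared sequence between the paralogs was short. The longest run that the coding sequences of Olig3 and Olig2 have in common is shown because reads from such a run could be divided between the genes: tcggtgcgcaagctctccaagatcgccac. It spans 29 bases, at coding positions 352 to 380 in Olig3 and 424 to 452 in Olig2, counted from the start codon. Olig1 shared at most 17 bases with either paralog. The deposited effective lengths correspond to fragments of 100 bases, longer than any of these runs.

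Tcf7l2 encodes a high mobility group (HMG) box factor that pairs with β-catenin at Wnt target genes. The gene lies on chromosome 19 at 55741820 to 55933654 (plus strand, ENSMUSG00000024985.19). It had 421.29 TPM from 21156 counts in replicate 1 and 269.11 TPM from 16977 counts in replicate 2. Scaled counts were 1.60-fold higher in replicate 1, a log2 ratio of 0.68. Among the 12239 well-counted coding genes, 57 had a larger ratio. The 9 factors together summed to 568.64 TPM in replicate 1 and 345.26 TPM in replicate 2, most of it Tcf7l2.

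The transcripts of Tcf7l2 were not used in choosing the genes. Of its 22 annotated transcripts, 9 coding and 7 noncoding ones start at the upstream end and 6 start beyond the midpoint of the gene, a grouping made after the values had been seen. Proteins made from the upstream start carry the β-catenin binding domain at their amino end. Transcript 209, which starts upstream, was the most abundant, and transcript 203 is the internal-start transcript with the longest coding sequence. Their coding sequences begin differently, as the first 60 coding bases with the start codon in capitals show.
Tcf7l2-209: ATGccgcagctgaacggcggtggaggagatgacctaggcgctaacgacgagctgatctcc
Tcf7l2-203: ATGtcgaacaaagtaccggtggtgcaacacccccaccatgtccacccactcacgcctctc
The start codon lies at 55742342 in transcript 209 and at 55895635 in transcript 203, 153293 bases apart. Transcript 209 has 483 coding bases, that is 161 codons in 4 coding exons, upstream of the start codon of transcript 203. The 2 transcripts share 894 coding bases, out of 1377 in transcript 209 and 897 in transcript 203.

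The 250 bases before each of the RefSeq starts of Tcf7l2 are shown, since transcripts from the upstream end and from inside the gene are compared below. The internal window lies just before transcript 203, which starts at 55895510. It does not head every internal transcript, since transcript 218 starts at 55894534 and transcript 220 at 55893352, both before the window. Capitals again mark TATAAA, which the internal window holds on the minus strand.
Tcf7l2 upstream promoter, chr19:55741560-55741809, plus strand: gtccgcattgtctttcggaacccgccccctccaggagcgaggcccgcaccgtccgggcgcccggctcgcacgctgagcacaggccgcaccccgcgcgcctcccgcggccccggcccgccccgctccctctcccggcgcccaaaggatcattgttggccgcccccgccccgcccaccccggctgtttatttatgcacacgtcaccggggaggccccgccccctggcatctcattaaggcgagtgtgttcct
Tcf7l2 internal promoter, chr19:55895071-55895320, plus strand: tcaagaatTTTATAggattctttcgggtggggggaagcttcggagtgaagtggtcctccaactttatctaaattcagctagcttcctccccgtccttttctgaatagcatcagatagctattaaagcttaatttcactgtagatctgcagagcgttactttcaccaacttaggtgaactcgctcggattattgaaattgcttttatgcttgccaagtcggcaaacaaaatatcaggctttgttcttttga
The upstream window had 72.8% GC and 30 CpG and held no TATAAA. The internal window had 40.8% GC and 7 CpG, and its match begins at position -242. Over the 10 promoter windows found for 8 of the 9 factors, 4 held TATAAA on either strand, against 12.4% of 32851 promoters. The 4 windows were those of Olig3, Olig2, Sim1 and the internal start of Tcf7l2. In Sim1 the match begins at position -14, on the minus strand. The 4 matches differ in position and strand, and whether any of them acts as a TATA box was not tested. None of the 10 held CTTTGAT (a Tcf/Lef core, in 3.21% of all promoters), CATATG (an E-box, 3.46%), TAATTA (a homeodomain core, 4.84%) or TACGTG (a bHLH-PAS core, 2.72%).

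Internal-start transcripts took 25.7% of Tcf7l2 TPM in replicate 1 and 22.5% in replicate 2, or 24.1 ± 2.23%. Transcript 209 took 51.7% in replicate 1 and 53.15% in replicate 2. Transcript 218, a short internal-start transcript, took 12.41% in replicate 1 and 12.75% in replicate 2. Transcript 203 took 9.05% in replicate 1 and 5.90% in replicate 2, and this gap of 3.15 percentage points compares with 3.16 for the whole internal class. Each remaining transcript stayed below 5% of the gene in both libraries.

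**Figure D3:**
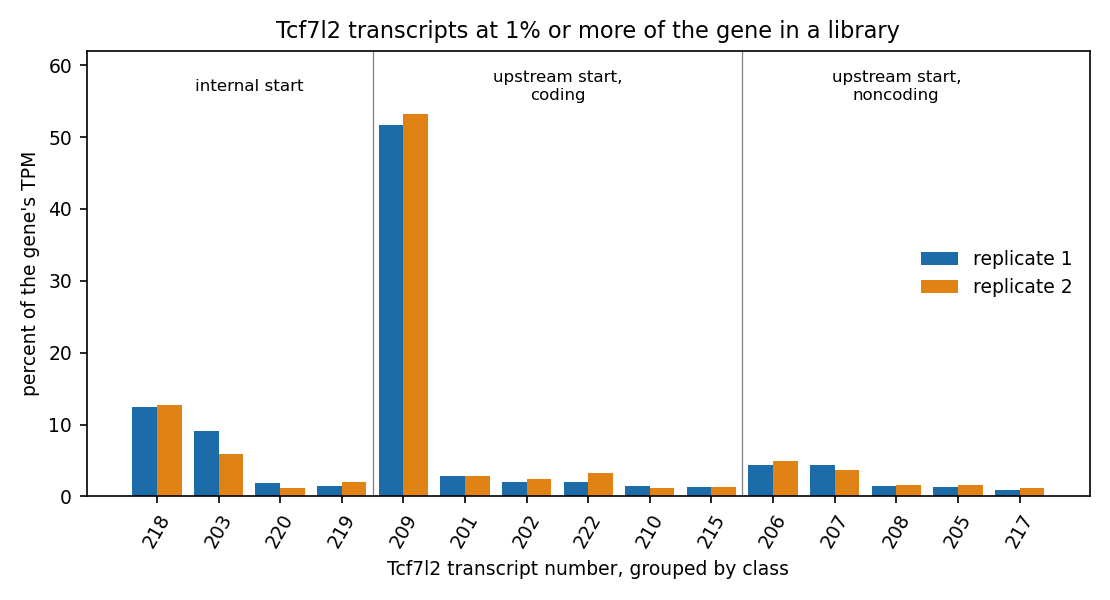
Percent of Tcf7l2 TPM taken by each transcript that reached 1% of the gene in a library, grouped by start class, with replicate 1 left of replicate 2. Transcript 209 takes more than any other transcript in both libraries, and transcript 203 shows the widest gap between them, 9.05% in replicate 1 and 5.90% in replicate 2.

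Every class of Tcf7l2 transcript was higher in replicate 1. Internal-start transcripts had 2789.39 expected counts in replicate 1 and 1699.84 in replicate 2, a log2 ratio of 1.08 with an interval of 0.99 to 1.17. That class was not uniform. Transcript 203, with 1951.08 and 1026.38 of those counts, had 1.29, with an interval of 1.18 to 1.40. Transcript 218 had 0.64, with an interval of 0.46 to 0.81, beside 0.63 for the upstream transcript 209. Coding transcripts from the upstream start had a log2 ratio of 0.62, with an interval of 0.59 to 0.66. Noncoding transcripts from the upstream start, with retained introns, had 0.68, with an interval of 0.58 to 0.78. The intervals take each estimated count as observed, and leave out the error of dividing shared reads among transcripts. As a share of expected counts rather than of TPM, the internal class took 13.2% in replicate 1 and 10.0% in replicate 2.

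Differences in transcript share of this size, in percentage points, were common over all well-counted genes of these libraries. Over 17896 transcripts of 5506 genes with at least 1000 counts in both libraries, the median absolute difference in share was 2.12 percentage points and the 95th percentile 9.58. The difference of 3.15 points for transcript 203 stood at percentile 65.1 of that distribution, and that of transcript 209, 1.45 points, at percentile 37.4. That distribution was not matched to Tcf7l2 in gene count or in transcript share. It therefore cannot show whether such a difference is usual for a transcript of this share in a gene counted this deeply.

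BARHL1 and BARHL2 are Bar-class homeodomain factors. Barhl1 lies on chromosome 2 at 28907679 to 28916668 (minus strand, ENSMUSG00000026805.14) and Barhl2 on chromosome 5 at 106452523 to 106458166 (minus strand, ENSMUSG00000034384.11). Barhl1 acts in cerebellar granule neurons and in the superior colliculus, among other sites, and had 36.22 TPM from 1500 counts in replicate 1 and 25.51 TPM from 1324 counts in replicate 2. Its log2 ratio was 0.54, with an interval of 0.44 to 0.65. Barhl2, which acts in the retina and the diencephalon, had 11.9 TPM from 492 counts in replicate 1 and 6.57 TPM from 343 counts in replicate 2. The log2 ratio of Barhl2 was 0.88, with an interval of 0.68 to 1.09.

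Barhl1 was the higher of the pair in both libraries, by 3.04-fold in replicate 1 and 3.88-fold in replicate 2. The log2 difference of the ratios, Barhl1 minus Barhl2, was -0.34, and its interval of -0.57 to -0.11 excluded 0. Barhl1 made up 75.3% of the pair's combined TPM in replicate 1 and 79.5% in replicate 2. Their longest shared coding run, gtcaagacctggtaccagaaccg, spans 23 bases within the homeodomain sequence and is shown as the place where reads could be shared.

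Barhl1 also divided its TPM among several transcripts. Transcript 203 took 33.76% in replicate 1 and 39.28% in replicate 2, and transcript 201 took 29.53% in replicate 1 and 26.13% in replicate 2. Transcript 205 took 22.88% in replicate 1 and 20.2% in replicate 2. Transcript 204 took 12.31% in replicate 1 and 12.59% in replicate 2. Transcript 203, with a difference of 5.52 percentage points, stood at percentile 83.7 of the transcripts described above, higher than any other transcript of the 9 factors compared that way. Barhl2 has a single annotated transcript.

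Gbx2 encodes a homeodomain factor that positions the boundary between midbrain and hindbrain and later marks thalamic neurons. It lies on chromosome 1 at 89927956 to 89931179 (minus strand, ENSMUSG00000034486.8). The gene had 29.92 TPM from 1051.36 expected counts in replicate 1 and 23.27 TPM from 1025.39 expected counts in replicate 2. Its log2 ratio of 0.40, with an interval of 0.27 to 0.53, was less than that of any Olig or Barhl gene. The coding transcript, Gbx2-201, took 83.2% of Gbx2 TPM in replicate 1 and 81.73% in replicate 2, and a retained-intron transcript took the rest. D130058E05Rik overlaps Gbx2 on the opposite strand, with 76 counts in replicate 1 and 89 in replicate 2. The strand setting of the counting is not stated, so reads from the overlap cannot be assigned to either gene with certainty.

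Sim1 is a bHLH-PAS factor and Otp a homeodomain factor, and both are required for neuroendocrine neurons of the hypothalamus. Sim1 lies on chromosome 10 at 50894754 to 50989152 (plus strand, ENSMUSG00000019913.4), and Otp on chromosome 13 at 94875602 to 94885130 (plus strand, ENSMUSG00000021685.11). Sim1 had 4.56 TPM from 384 counts in replicate 1 and 3.96 TPM from 409 counts in replicate 2. Its log2 ratio of 0.27, with an interval of 0.07 to 0.48, was the lowest of the 9, and 562 of the 12239 well-counted coding genes had a larger one. With ERCC spike-in scaling the Sim1 interval ran from -0.20 to 0.21. Otp had 2.28 TPM from 101 counts in replicate 1 and 1.64 TPM from 99 counts in replicate 2. Its log2 ratio was 0.39, and a difference was not detectable at this depth.

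Sim1 TPM depends on how its 2 transcripts are counted. Sim1-201, with a coding sequence of 2295 bases, took 51.56% of TPM in replicate 1 and 49.26% in replicate 2. Sim1-202, with 282 coding bases, took the remainder from 65.5 expected counts in replicate 1 and 75.25 in replicate 2. In the older M4 annotation all of Sim1 was assigned to Sim1-201, and the mean level was 2.42 TPM instead of 4.26 ± 0.424 TPM. Otp-201 took 90.68% of Otp TPM in replicate 1 and 100% in replicate 2. The share of Otp-202 in replicate 1, 9.32%, rested on only 2.33 expected counts, and Otp-202 had no counts in replicate 2.

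Genes that flank the factors were compared over 200 kb on either side. Of 76 annotated neighbours, 28 had at least 10 counts in a library, and their median log2 ratio was 0.07. Olig3 had 5 annotated neighbours in this window, and none of them reached 10 counts. Around Olig2, the nearest counted neighbour was Gm49614, an annotated locus with no settled transcript class on the opposite strand, 2.531 kb upstream. Gm49614 had 18 counts in replicate 1 and 9 in replicate 2, a log2 ratio of 1.36 with an interval of 0.13 to 2.70. Ifnar2 and Il10rb, interferon and interleukin receptor genes downstream of the Olig pair, had log2 ratios of -0.18 and -0.19.

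**Figure D4:**
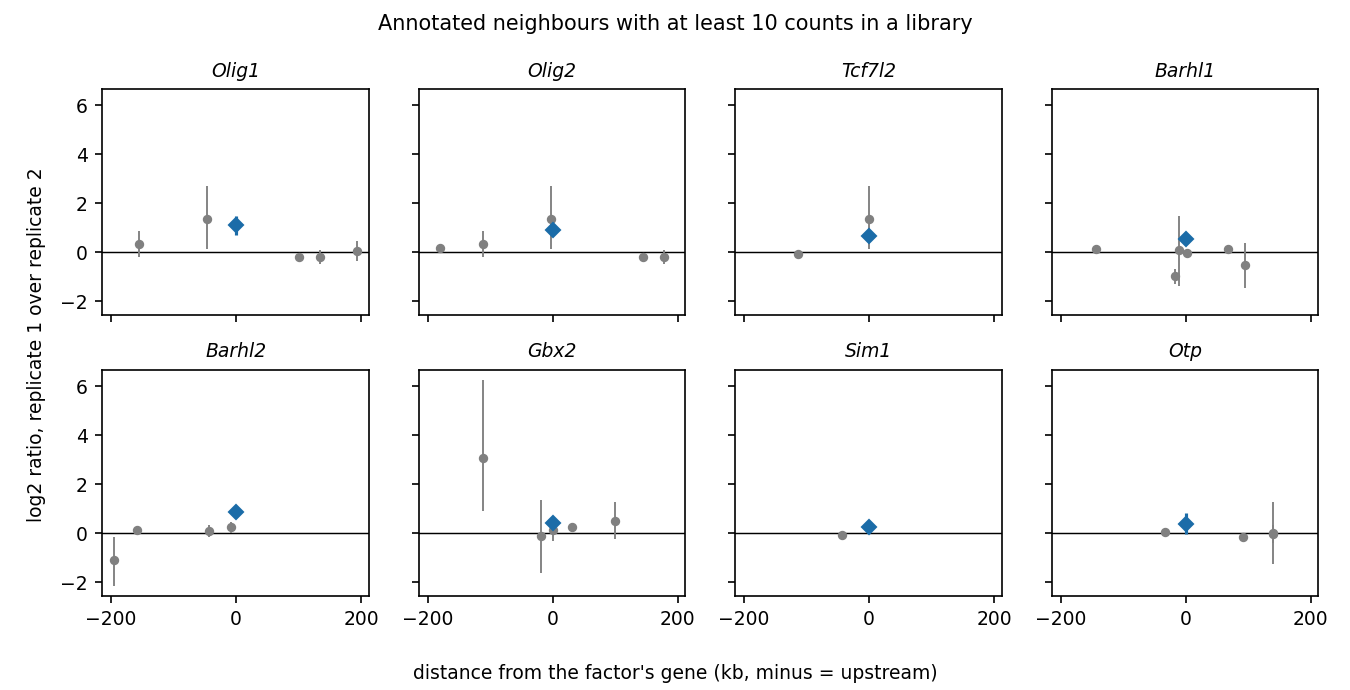
Log2 ratio of neighbouring genes (grey, with 95% counting intervals) against distance from each factor's gene (blue), for neighbours that reached 10 counts in either library; Olig3 had none. Most grey points lie near 0, and the widest intervals belong to neighbours with few counts.

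Of these 28 neighbours, 3 were past 2-fold with an interval excluding equality in favour of replicate 1 and 1 in favour of replicate 2, against 1.78% and 2.45% of all genes in those directions. The 3 were Gm49614, Ppnr inside Tcf7l2 with 18 counts in replicate 1 and 9 in replicate 2, and Iqca upstream of Gbx2 with 13 in replicate 1 and 2 in replicate 2. The other was Gm43421 upstream of Barhl2, with 13 counts in replicate 1 and 36 in replicate 2. Without regard to size, the interval of 8 neighbours favoured replicate 1 and that of 4 favoured replicate 2, where 15.5% and 16.7% of all genes did so. Gm13394, a processed pseudogene 16.942 kb upstream of Barhl1, had 136 counts in replicate 1 and 346 in replicate 2, a log2 ratio of -0.98, opposite in direction to Barhl1. A long noncoding RNA 7.634 kb upstream of Barhl2, Gm26872, had 336 counts in replicate 1 and 367 in replicate 2, a log2 ratio of 0.24 with an interval of 0.02 to 0.45. Vti1a near Tcf7l2 (-0.07), Ddx31 near Barhl1 (-0.03), Ascc3 near Sim1 (-0.06) and Tbca near Otp (0.05) had log2 ratios close to 0.

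The genes most like Olig3 and Tcf7l2 in ratio were found among protein-coding genes with at least 200 summed counts, by the absolute difference in log2 ratio over the 2 libraries. Nearest to Olig3 were Duxbl3 at 2.62, the Wnt co-agonist gene Rspo3 at 1.95 and the homeodomain factor gene Pax6 at 1.75. Duxbl3 belongs to a cluster of near-identical copies, so its counts are uncertain. Nearest to Tcf7l2 were Pkp2 at 0.68, the histone gene Hist1h2ak at 0.67 and Plcl1 at 0.69. Each of the 3 lay within 0.00881 of Tcf7l2, and Hist1h2ak, as a histone gene, also shares reads with near-identical copies.

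Related genes of the same regions were examined in lists that left the 9 factors out. Over all genes that reached 10 counts in either library, 15.5% favoured replicate 1 and 16.7% favoured replicate 2. Past 2-fold were 1.78% in favour of replicate 1 and 2.45% in favour of replicate 2. These shares are the background for every list below. Of 15 thalamic genes, none was past 2-fold, the intervals of 8 favoured replicate 1 and of 5 favoured replicate 2, and the median log2 ratio was 0.08. With ERCC scaling that median was -0.19, with 1 gene favouring replicate 1 and 10 favouring replicate 2. Neurog2, a proneural factor, was the highest in ratio at 0.89, with 118.74 TPM in replicate 1 and 65.1 TPM in replicate 2, and Rora the lowest at -0.39. Dbx1, the most abundant, had 134.78 TPM in replicate 1 and 144.1 TPM in replicate 2. Of 12 pretectal genes, Pax6 was past 2-fold, 4 favoured each replicate, and the median was -0.01. With ERCC scaling 1 pretectal gene favoured replicate 1 and 8 favoured replicate 2, at a median of -0.28. Bhlhe22 was the lowest of them at -0.42, and Ebf1 the most abundant at 68.32 TPM in replicate 1 and 70.26 TPM in replicate 2.

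**Figure D5:**
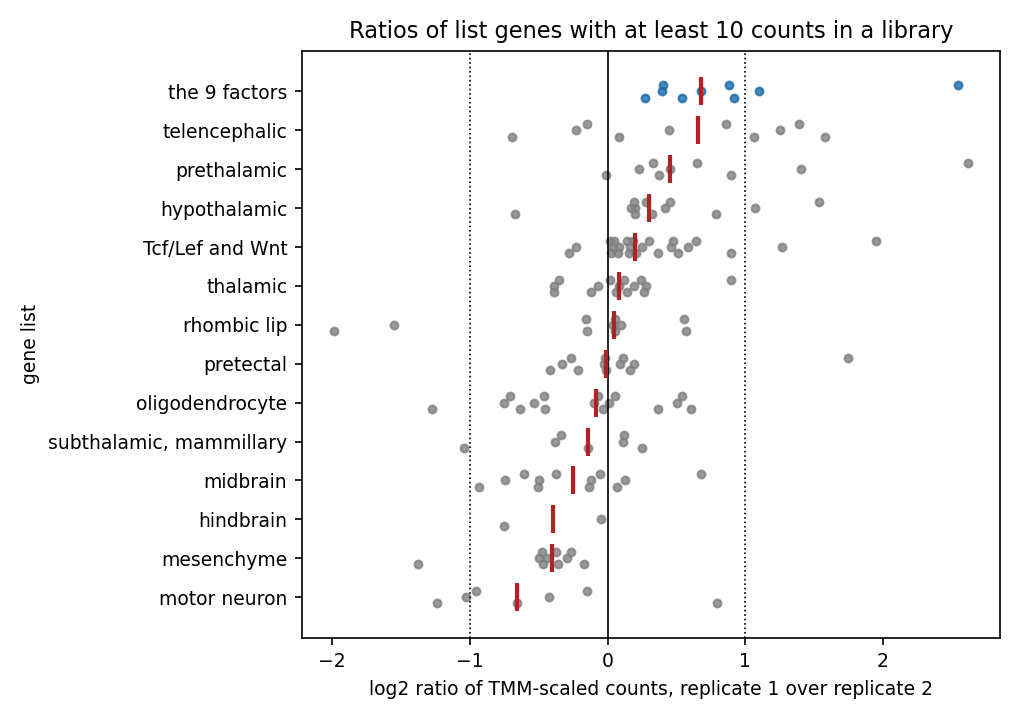
Log2 ratio, replicate 1 over replicate 2, of the genes in each list that reached 10 counts in either library, with the 9 factors in blue at the top; red bars are medians and dotted lines mark 2-fold. Medians run from 0.68 for the 9 factors to -0.66 for motor neuron genes, and thalamic and pretectal medians lie at 0.08 and -0.01.

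The lists nearest to Sim1 and Otp and to the rostral diencephalon had higher medians. Of 9 prethalamic genes, the intervals of 7 favoured replicate 1 and of 0 favoured replicate 2, with a median of 0.46, or 0.19 with ERCC scaling. Fezf1 and Fezf2 were past 2-fold, Fezf1 with 3.43 TPM in replicate 1 and 0.57 TPM in replicate 2, while Gsx2 had the lowest log2 ratio, -0.02, and Dlx1 the highest TPM. Of 12 hypothalamic genes with enough counts, 7 favoured replicate 1, 1 favoured replicate 2 and the median was 0.30, or 0.03 with 3 favouring each replicate under ERCC scaling. Bsx (1.54) and Sim2, a relative of Sim1 (1.07), were past 2-fold, Rax was lowest at -0.67 and Pou3f2 most abundant. Arnt2, which encodes the dimer partner of SIM1, had a log2 ratio of 0.20.

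In lists of lineages in which Olig and Barhl genes act, more genes favoured replicate 2 than replicate 1. Of 16 oligodendrocyte genes with enough counts, the intervals of 2 favoured replicate 1 and of 5 favoured replicate 2, against backgrounds of 15.5% for replicate 1 and 16.7% for replicate 2, and the median was -0.09. With ERCC scaling 1 favoured replicate 1 and 10 favoured replicate 2, at a median of -0.36. Sox10 was past 2-fold, with 0.37 TPM from 18 counts in replicate 1 and 0.91 TPM from 56 counts in replicate 2. Gpr17 was highest in ratio at 0.60, and Nkx6-2 was the most abundant. Of 7 motor neuron genes, 1 favoured replicate 1 and 5 favoured replicate 2, with a median of -0.66, 2 of them past 2-fold, running from Isl1 at 0.80 to Lhx4 at -1.24. Of 10 rhombic lip genes, 3 favoured replicate 1 and 4 favoured replicate 2, with 2 past 2-fold in favour of replicate 2 and a median of 0.05, or -0.22 with ERCC scaling. Zic2 was the highest of them at 0.57 and Mab21l1 the most abundant, and the 2 past 2-fold were Atoh1 at -1.55 and Ptf1a at -1.99. Ptf1a had 9 counts in replicate 1 and 46 in replicate 2. Of 7 subthalamic and mammillary genes, 1 favoured replicate 1 and 4 favoured replicate 2, with a median of -0.14, Foxa2 the lowest at -1.05 and Foxp1 the most abundant.

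Partners and Wnt relatives of Tcf7l2 were measured in a list of 24 genes. The intervals of 16 favoured replicate 1 and that of 1, Tcf7l1, favoured replicate 2, against backgrounds of 15.5% for replicate 1 and 16.7% for replicate 2, and the median log2 ratio was 0.20. With ERCC scaling 6 favoured replicate 1 and 8 favoured replicate 2, at a median of -0.07. Past 2-fold were Rspo3, with 20.93 TPM in replicate 1 and 5.47 TPM in replicate 2, and Rspo1 at a log2 ratio of 1.27. Ctnnb1, which encodes β-catenin, had 666.88 TPM in replicate 1 and 664.36 TPM in replicate 2. Among the Tcf/Lef relatives of Tcf7l2, Lef1 had a log2 ratio of 0.08, Tcf7 of 0.16 and Tcf7l1 of -0.28, against 0.68 for Tcf7l2 itself. Axin2, a Wnt feedback target, stood at 0.47.

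Markers of other regions and tissues also differed between the pools, where 15.5% of all genes favoured replicate 1 and 16.7% favoured replicate 2. Of 10 telencephalic genes, 6 favoured replicate 1 and 2 favoured replicate 2, with 4 past 2-fold in favour of replicate 1 against 1.78% of all genes, and their median was 0.66, on a summed level of 50.85 TPM in replicate 1 and 42.16 TPM in replicate 2. Eomes was highest in ratio at 1.58, and Emx2 was the most abundant. Of 12 midbrain genes, 3 favoured replicate 1 and 8 favoured replicate 2, or 0 and 11 in those directions with ERCC scaling, with a median of -0.25, Fgf8 at 0.68, Pax8 at -0.93 and a summed level of 439.05 TPM in replicate 1 and 500.71 TPM in replicate 2. Of 10 mesenchymal genes, 9 favoured replicate 2, with a median of -0.40, from Twist1 at -0.17 to Foxc2 at -1.37, and their summed level, led by Col3a1, was 1041.79 TPM in replicate 1 and 1478.3 TPM in replicate 2. The 2 hindbrain genes with enough counts had a median of -0.40. None of these markers other than Hoxb4 was at 0 in both libraries, and their part in the ratios of the 9 factors was not tested.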

How the data were processed

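Polyadenylated RNA of 2 pooled midbrain samples was quantified. Per the labels' protocols, cDNA was made from an oligo-dT primer and fragmented by tagmentation, ERCC RNAs were added, and the assembly was mm10. Per the file headers, the deposited tables hold an expected count (an unscaled estimate), TPM and FPKM (scaled by effective length and library total), bounds on TPM, and the percent of a gene's TPM in each transcript. The column names are those of RSEM. Not given in the sources used here are its version, the aligner and the strand setting. The authors deposited tables for 2 annotations, and M21 was the main one.

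Rows that name no gene were left out of scaling (4.02% of counts in replicate 1 and 3.38% in replicate 2, from totals of 30274342 and 38421860). Expected counts were rounded and scaled with TMM (edgeR 4.0.16, R 4.3.3). Log2 ratios carry exact conditional binomial (Clopper-Pearson) 95% intervals, and a log2 difference between the ratios of 2 genes carries an approximate (Woolf) interval on their counts. A gene had to reach 10 counts in either library. A ratio past 2-fold also needed an interval excluding equality. With 1 library per pool there is no test across pools and no p-value. The procedure was also run on simulated counts that held counting error only, as the intervals assume. That run therefore cannot show how the intervals behave under variation between pools. Promoter sequences and motifs came from RefSeq (GRCm38.p6), where 8 of 9 factors were matched, and coding sequences from GENCODE M21.

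The 9 factors, the 13 lists and the tests were chosen with earlier results of these data known. Named are every factor, its transcripts at 5% or more of the gene, counted neighbours within 200 kb, the 3 genes nearest in ratio to Olig3 and to Tcf7l2, and of each list the largest and smallest ratio (at least 50 counts) and the highest TPM, except for some genes that are not reported here. Arnt2, Axin2, Fezf2, Hoxb4, Lef1, Ptf1a, Rspo1, Sim2 and Tcf7 were named in addition, after their values had been seen. Alternatives were another scaling (DESeq2 1.42.0 size factors, library totals, ERCC), the M4 annotation, other count filters, log2 of TPM or FPKM with a pseudocount, shares of counts, and leaving out a library.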

Additional observations from a re-analysis of the deposited data

How the results depend on the processing

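No alternative turned a ratio of the 9 factors to the other side of equality, and DESeq2 size factors, library totals and log2(FPKM + 0.1) moved none of the values computed with them beyond counting error. ERCC spike-in scaling put the median over all genes at -0.28. With it the log2 ratios were 2.28 for Olig3, 0.65 for Olig2, 0.61 for Barhl2, 0.41 for Tcf7l2, 0.27 for Barhl1, 0.13 for Gbx2 and 0.00277 for Sim1, and 7 of the 9 factors rather than 8 lay beyond counting error. Counts past 2-fold that moved by over 1.5 times with it were, in favour of replicate 1, 1 factor (Olig3), 1 hypothalamic gene, 1 Tcf/Lef and Wnt gene and 2 telencephalic genes, and in favour of replicate 2, 2 midbrain genes; those of the other lists moved less. Over all genes the counts past 2-fold were 217 in favour of replicate 1 and 873 in favour of replicate 2, where TMM gave 354 in favour of replicate 1 and 487 in favour of replicate 2. On the log2(TPM + 0.1) scale Tcf7l2 stood at 0.65, and on the log2(TPM + 1) scale at 0.64, where 1 factor was past 2-fold. Requiring 50 counts left 1 rhombic lip gene past 2-fold in favour of replicate 2, and over all genes 77 in favour of replicate 1 and 131 in favour of replicate 2. With the M4 annotation Sim1 had a mean of 2.42 TPM. As a share of expected counts, internal-start transcripts made up 11.6% of Tcf7l2 on average. The cause of these shifts was not tested. Leaving out a library leaves the other library's own level and no ratio. No paired analysis was possible because the series has a single group. Depth limits Otp, Olig1 and several neighbours, whose ratios rest on few counts.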
